A study of Mus musculus with 6 samples.

Results

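The calcium reuptake loci are the genes Atp2a2, Sln and Pln with the noncoding transcripts listed over or near them. A feature is 1 row of the authors' deposited table, a transcribed interval on the mm10 build named by an assembler identifier. It was taken when it overlapped the body of 1 of these genes in the GENCODE M21 annotation. A feature that overlapped no protein-coding gene was taken when 1 of them had the nearest protein-coding start, at most 100 kb away. This gave 25 of 34518 features, 15 for Atp2a2, 6 for Sln and 4 for Pln. The samples were left atria of adult CD1 mice in 2 groups with 3 libraries each. FOG2 was overexpressed in one group (FOG2_OE), and wild-type animals (WT) formed the other. Animals of both groups had been kept off doxycycline for 1 week before the hearts were taken. The protocol in the labels calls them DTG and NTG animals, and the promoter that drove FOG2 is not given in the sources used here. FOG2, the product of Zfpm2, is a cofactor of GATA transcription factors, and the series concerns the atrial network shared by TBX5 and GATA4. Libraries were made from total RNA after removal of ribosomal and polyadenylated RNA. The overexpressed gene checks the labels: MSTRG.29831, inside Zfpm2 and listed opposite to it, stood at 416 CPM in FOG2_OE against 0.484 CPM in WT (log2 fold change 9.74, adjusted p = 2.44e-117 by the authors' deposited table). CPM is the fitted count per 1000000 reads of the effective library, the library size after the authors' scaling.

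Atp2a2 encodes SERCA2, the pump that returns calcium from the cytosol to the sarcoplasmic reticulum and so lets heart muscle relax. Sln and Pln encode sarcolipin and phospholamban, small membrane proteins that bind the pump and lower its activity, and phosphorylation of phospholamban by protein kinase A relieves this brake. In the mouse heart sarcolipin is largely an atrial protein, while phospholamban is more abundant in the ventricle.

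Some of the listed features lie over coding bases of the 2 genes whose loci gave calls, on the strand opposite to the gene. These bases show where such features sit relative to the messenger RNA. The sequences are from the GENCODE M21 transcripts (mm10), read 5′ to 3′ on the gene's strand, and capitals mark the start codon. For Atp2a2 the stretch is the coding part of exon 1 under MSTRG.66587 (chr5:122501569-122501685, minus strand, 117 of 3132 coding bases). For Sln it is the coding sequence in exon 2 without the stop codon, all of which lies under MSTRG.84946 (chr9:53853473-53853565, plus strand, 93 bases).
Atp2a2: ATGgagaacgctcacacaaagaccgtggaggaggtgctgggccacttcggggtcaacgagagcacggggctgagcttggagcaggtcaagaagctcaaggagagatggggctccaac
Sln: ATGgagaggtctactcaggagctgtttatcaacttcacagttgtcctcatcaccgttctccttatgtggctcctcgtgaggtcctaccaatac
Strand is not kept by the library kit that the labels name. Reads of the messenger RNA and of an antisense transcript over these bases therefore cannot be told apart, and the strand of a feature is given below only as the table lists it.

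The features listed at the loci of the pump and of sarcolipin had lower levels with FOG2 overexpression. None of the 4 features assigned to Pln was called. Whether features over exons held reads of messenger RNA was not tested. By the authors' deposited table, at an adjusted p under 0.05, 8 of the 25 features were called lower in FOG2_OE and 0 higher. Over all features 4.65% were called lower and 1.16% higher. At an unadjusted p under 0.05 the members gave 15 lower and 2 higher, where 12.5% of all features were lower and 4.52% higher. The count of lower calls became 3 with the median ratio of all features centred at 1, and 0 with an F distribution (10 residual degrees of freedom, used wherever an F distribution is named below) in place of chi-square. The value of 10 is a chosen alternative, since 6 libraries in 2 groups leave 4 residual degrees of freedom. With 4, no feature of the whole series was called (smallest adjusted p = 0.252 by that F distribution). The lower calls were 5 of the 15 features of Atp2a2 and 3 of the 6 of Sln. The log2 fold change of FOG2_OE over WT, below called the log2 change, was negative by the authors' deposited table for all 21 features of these 2 loci (-2.99 to -0.23) and positive for all 4 of Pln. These 4 lie 64.9 to 83.3 kb from the Pln start. Features nearer to Pln lie inside the gene Cep85l or have its start as the nearest, are no members, and went in both directions. One of them, MSTRG.7947, 1.13 kb from the Pln start, was called lower (adjusted p = 0.000949 by the authors' deposited table). The median log2 change by the authors' deposited table was -1.13 at Atp2a2, -1.40 at Sln and 1.25 at Pln, beside -0.21 over all features. The features of a locus lie close together and may be pieces of the same transcripts, and are not independent of each other.

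The size of these changes is best read from the fitted levels. The sample columns of the table are values fitted by the authors' model, so that libraries of a group differ only by library size. For the most abundant member, MSTRG.66594 at Atp2a2, the fitted counts were 362, 329 and 386 in FOG2_OE replicates 1 to 3 and 794, 874 and 917 in WT replicates 1 to 3. The groups do not overlap, but the spread between replicates cannot be read from such values. Levels are therefore given below as 1 CPM value a group. The standard error is the one implied by the likelihood ratio in the table. Summed over its features, Atp2a2 stood at 14.6 CPM in FOG2_OE and 32.4 CPM in WT, a ratio of 0.452 (95% counting interval 0.434 to 0.471). Sln stood at 5.64 and 12.6 CPM, a ratio of 0.447 (0.418 to 0.476). Pln stood at 0.532 and 0.203 CPM, a ratio of 2.62 (1.86 to 3.75), on far fewer counts. These intervals (exact binomial) cover counting error only. In whole tissue, fewer cells of a type and less RNA per cell cannot be told apart.

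**Figure D1:**
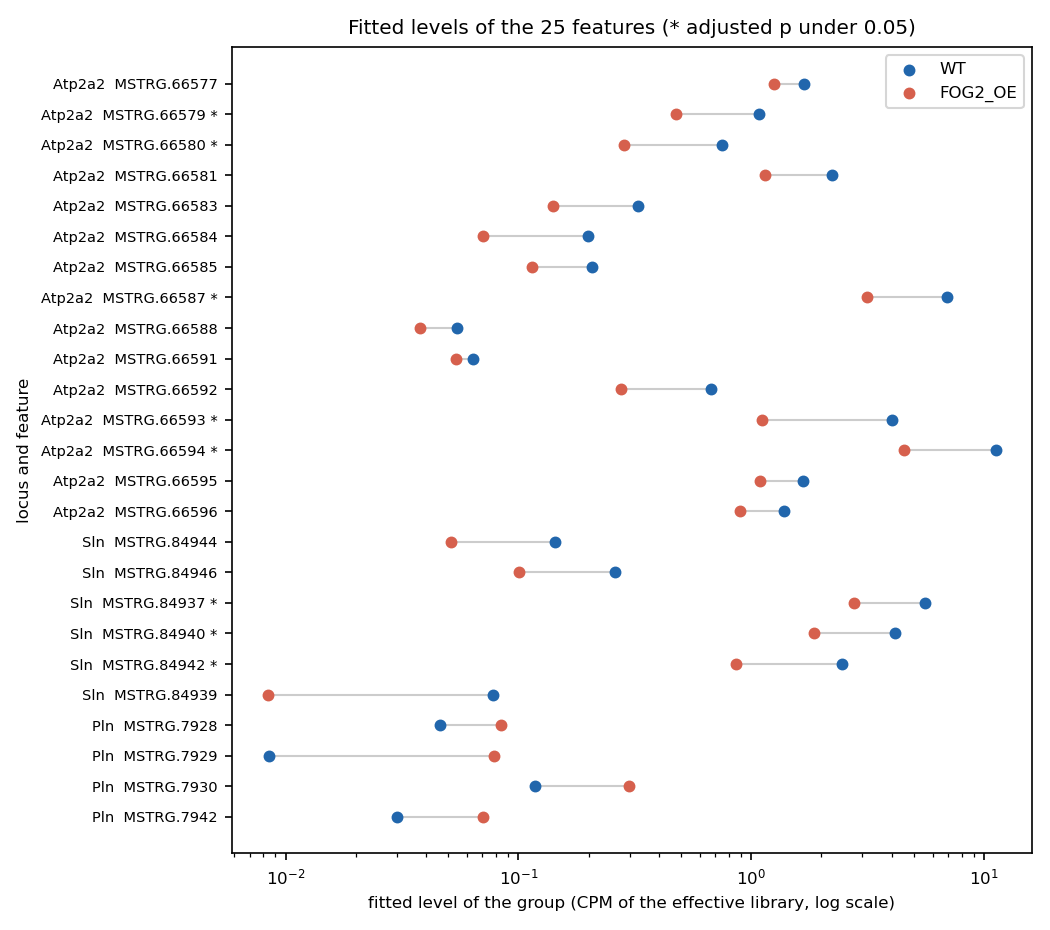
Fitted level of each of the 25 features in WT and FOG2_OE, in CPM of the effective library on a log scale, with features in genome order within each locus and asterisks at an adjusted p under 0.05. All 21 features of Atp2a2 and Sln are lower in FOG2_OE, by log2 changes of -2.99 to -0.23, and the 4 features of Pln are higher and scarce, at 0.299 CPM or less.

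The calls with the smallest adjusted p lay upstream of Atp2a2. A run of 5 features began 11.4 kb from the annotated start and ran over 25.7 kb of chromosome 5, from 122513591 to 122539294, with gaps of 300 to 1566 bases. It is listed on the strand of Atp2a2, overlaps no protein-coding gene, and ends 10.9 kb before Ift81, the next such gene. It summed to 7.91 CPM under overexpression, against 18.9 CPM in WT, a ratio of 0.419 (95% counting interval 0.396 to 0.442). MSTRG.66593 (122516610 to 122521206) stood at 1.11 CPM in FOG2_OE and 4.03 CPM in WT. Its log2 change by the authors' deposited table was -1.86 (implied SE 0.38, adjusted p = 0.000169). MSTRG.66594 (122522589 to 122534956), the longest member at 12368 bases, stood at 4.54 and 11.2 CPM and held 34.5% of the summed WT level of the locus. Its log2 change by the authors' deposited table was -1.30 (implied SE 0.27, adjusted p = 0.000215).

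The remaining features upstream of Atp2a2 were not called. MSTRG.66592, the member of the run nearest to the gene, stood at 0.276 CPM in FOG2_OE against 0.668 CPM in WT (log2 change -1.27, adjusted p = 0.0777 by the authors' deposited table). At the far end of the run, MSTRG.66595 and MSTRG.66596 had log2 changes of -0.61 and -0.62 by the authors' deposited table (implied SE 0.37 and 0.41, adjusted p = 0.414 and 0.47). Their 95% intervals reached from -1.35 to 0.12 and from -1.44 to 0.19, while that of MSTRG.66593 ran from -2.61 to -1.11. The difference along the run was not tested. Per kb of feature, 4 of the 5 stood between 0.877 and 0.934 CPM in WT, and MSTRG.66592 stood at 0.459. In FOG2_OE the same 4 stood between 0.241 and 0.605 CPM per kb, and MSTRG.66592 stood at 0.190. Nearer the gene, MSTRG.66588 (0.965 kb from the start) and MSTRG.66591 (9.88 kb) had at most 0.0635 CPM in either group. Their log2 changes were -0.51 and -0.23 by the authors' deposited table, with an implied SE of 1.12 and 0.90, so that neither a rise nor a fall was detectable at this depth.

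Inside the body of Atp2a2 the table listed 8 features, all on the strand opposite to the gene, and 3 were called lower. MSTRG.66587 covers 633 bases at the head of the gene (122501569 to 122502201), all within annotated exons, and stops 24 bases short of the start; the coding bases printed above lie under it. It fell from 6.91 to 3.15 CPM, with a log2 change of -1.13 by the authors' deposited table (implied SE 0.36, adjusted p = 0.0346). Per kb it stood at 10.9 CPM in WT, against 0.0891 to 0.934 for the other 7 in the body. Toward the end of the gene, MSTRG.66579 (122457748 to 122469814) fell from 1.08 to 0.476 CPM, with a log2 change of -1.17 by the authors' deposited table (implied SE 0.39, adjusted p = 0.0484). MSTRG.66580 (122459449 to 122460249) fell from 0.748 to 0.284 CPM, with a log2 change of -1.39 by the authors' deposited table (implied SE 0.45, adjusted p = 0.0385). It lies wholly within MSTRG.66579, as does MSTRG.66581, and the table lists these on 1 strand. How reads were shared between them is not given in the sources used here.

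The other features of the body were not called. MSTRG.66581 stood at 1.14 CPM in FOG2_OE against 2.21 CPM in WT (log2 change -0.95, adjusted p = 0.128 by the authors' deposited table). MSTRG.66583, MSTRG.66584 and MSTRG.66585 had mean fitted counts of 10.5 to 18.2 per library and log2 changes of -1.20, -1.47 and -0.86 by the authors' deposited table. MSTRG.66585 lies over Gm43359, a locus the annotation marks as still to be experimentally tested. MSTRG.66577 crosses the end of the gene (122453231 to 122455627) and had the smallest change in the body, -0.43 by the authors' deposited table (implied SE 0.37, adjusted p = 0.6), from 1.69 to 1.25 CPM. MSTRG.66584 and MSTRG.66585 held no exon base of Atp2a2, and MSTRG.66583 held 78. Whether the features over exons held reads of Atp2a2 messenger RNA was not tested.

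At Sln the calls sat at the end of the gene and just past it. MSTRG.84937 (chromosome 9, 53854326 to 53854674) has 235 bases in the last exon of Sln and is listed on its strand. It stood at 2.76 CPM in FOG2_OE and 5.58 CPM in WT, or 7.92 and 16.0 CPM per kb, the highest level per kb among the 25 features. The log2 change by the authors' deposited table was -1.01 (implied SE 0.33, adjusted p = 0.0401). MSTRG.84940 begins 717 bases past the annotated end (53855277 to 53855746) and stood at 1.85 and 4.12 CPM, with a log2 change of -1.15 by the authors' deposited table (implied SE 0.36, adjusted p = 0.0327). MSTRG.84942 begins 2030 bases past the end (53856590 to 53858664) and stood at 0.861 and 2.46 CPM. It had the smallest adjusted p of the locus, 0.0124, with a log2 change of -1.51 by the authors' deposited table (implied SE 0.42). Per kb the levels in WT went down with distance from the gene end, from 16.0 to 8.76, 1.18 and 0.654 CPM.

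The other Sln features were scarce. MSTRG.84939, 6139 bases past the end, had 2 fitted counts over FOG2_OE and 18 over WT, a ratio of WT to FOG2_OE of 9.23 with a counting interval of 2.20 to 81.8 (adjusted p = 0.0739 by the authors' deposited table). Within the gene, MSTRG.84944 (53850261 to 53850412), 97 bases from the start, stood at 0.0511 CPM in FOG2_OE and 0.143 CPM in WT. MSTRG.84946 (53853410 to 53853741), over the coding sequence printed above, stood at 0.101 and 0.260 CPM. Their log2 changes by the authors' deposited table were -1.46 and -1.35 (implied SE 0.67 and 0.58, adjusted p = 0.2 and 0.169). Whether the features over exons of Sln, MSTRG.84937 included, held reads of Sln messenger RNA was not tested.

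The features assigned to Pln were far from the gene and scarce. No feature of the table overlapped the Pln body, which lies inside the gene Cep85l on the other strand. The 4 members begin beyond the far end of Cep85l, 64.9 to 83.3 kb upstream of the Pln start, and all are listed on the Pln strand. MSTRG.7928, MSTRG.7929 and MSTRG.7930 lie in the long noncoding RNA gene Gm36173, the last of them over its exon, and MSTRG.7942 lies outside it. MSTRG.7942 lies within MSTRG.7941, listed on the other strand at 14.0 CPM in FOG2_OE and 13.6 CPM in WT. Since strand is not kept, reads of these 2 features cannot be told apart there. MSTRG.7930 (chromosome 10, 53260367 to 53260797), the most abundant, stood at 0.299 CPM in FOG2_OE and 0.118 CPM in WT, with a log2 change of 1.32 by the authors' deposited table (implied SE 0.62, adjusted p = 0.227). MSTRG.7929 had 19 fitted counts over FOG2_OE and 2 over WT, a ratio of 9.23 with a counting interval of 2.24 to 82.3 (adjusted p = 0.135 by the authors' deposited table). MSTRG.7928 and MSTRG.7942 had log2 changes of 0.86 and 1.18 by the authors' deposited table (implied SE 0.94 and 0.99, adjusted p = 0.696 and 0.573). The higher summed level given above is made of these 4 features, none of which passed the test.

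**Figure D2:**
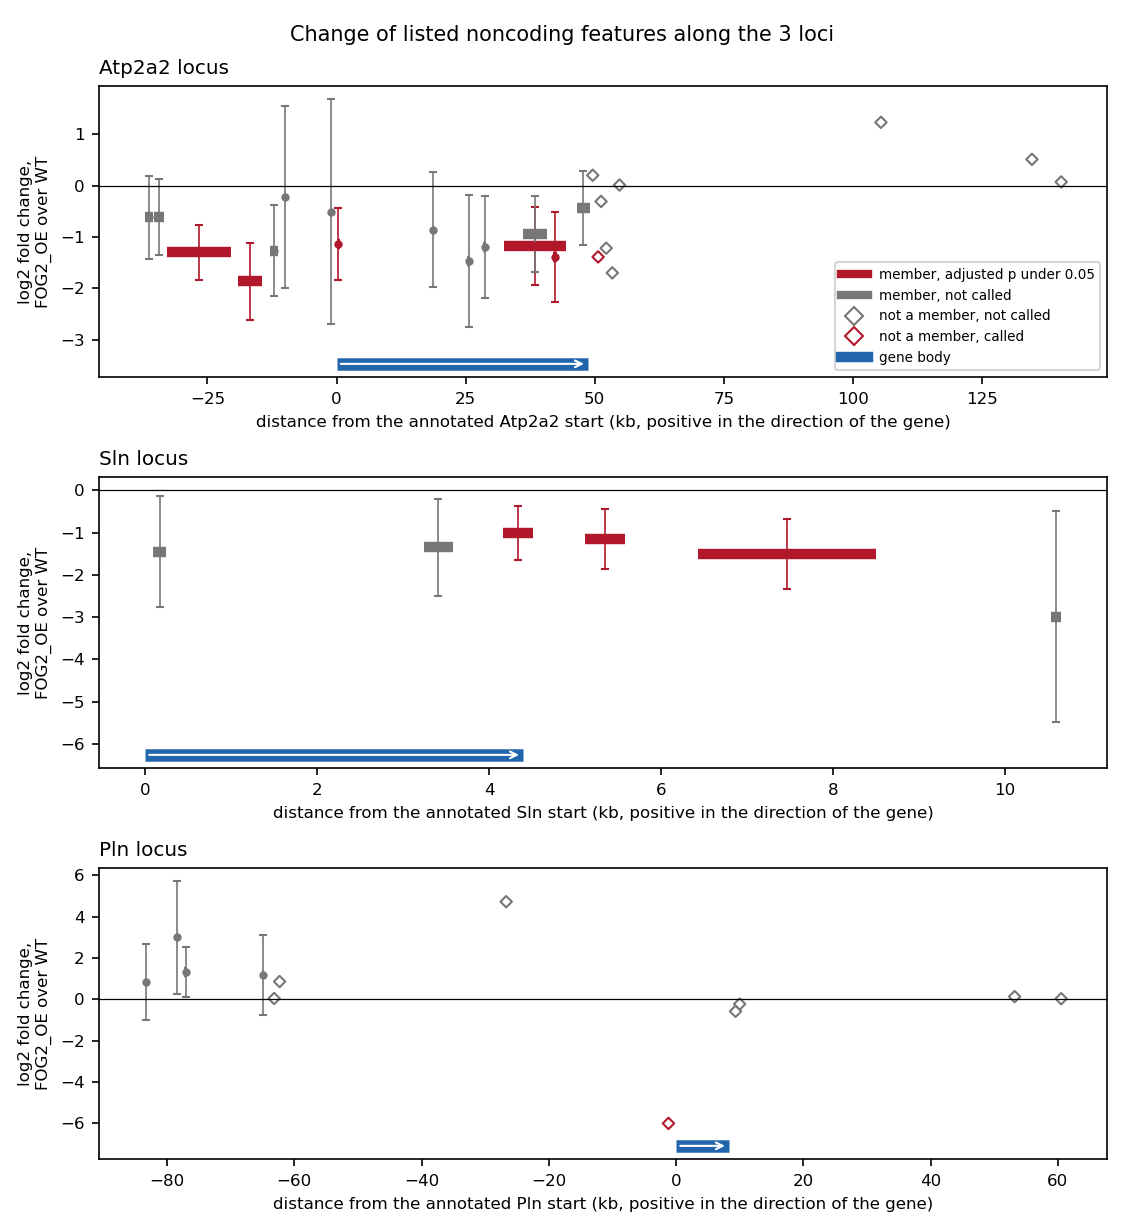
Log2 change (FOG2_OE over WT, from the authors' deposited table) of the listed features against distance from the annotated start of Atp2a2, Sln and Pln in kb. Thick bars span a member feature (dots where it is short), thin bars are 95% intervals from the implied SE, diamonds are features within 100 kb of the gene that belong to other genes, and the blue bar is the gene body. The called members of Atp2a2 lie both upstream and inside the gene and those of Sln at its end; the diamonds at -6.00 and 4.72 beside Pln stood at 0 in 1 group, so that their heights are no measure of fold.

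The membership rule left out features beside the 2 other gene ends, and a like position in the 3 genes was compared. The first feature listed past the end of each gene on the gene's strand was taken for this, a comparison chosen after values had been seen. At Atp2a2 this was MSTRG.66574 (chromosome 5, 122450627 to 122452527), 986 bases past the end. It is no member since its nearest start is that of Anapc7. It fell from 5.22 to 1.99 CPM, with a log2 change of -1.39 by the authors' deposited table (implied SE 0.37, adjusted p = 0.00755, 0.0379 with the median ratio of all features centred at 1, and 0.138 with the F distribution). Listed on the other strand, MSTRG.66576 (122452561 to 122452674) lies nearer to the end of Atp2a2 and was not called. Its log2 change was 0.20 by the authors' deposited table (implied SE 0.95, adjusted p = 0.943). It stood at 0.0549 CPM in FOG2_OE and 0.0476 CPM in WT. At Sln the feature taken was MSTRG.84940, described above. At Pln it was MSTRG.7949 (chromosome 10, 53346712 to 53347309), 725 bases past the end and inside Cep85l. It stood at 4.39 CPM in FOG2_OE and 6.58 CPM in WT, and its log2 change of -0.58 was not called (implied SE 0.33, adjusted p = 0.363 by the authors' deposited table). The 95% intervals were -2.12 to -0.66 at Atp2a2, -1.86 to -0.44 at Sln and -1.23 to 0.06 at Pln. They overlap, and the difference between the genes was not tested.

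Among other features within 100 kb that belong to neighbouring genes, 1 beside Atp2a2 and 1 beside Pln were called lower. Over all features 4.65% were called lower. Beside Atp2a2 there were 9, with a median log2 change of 0.01 by the authors' deposited table, and MSTRG.66574 was the call among them. MSTRG.66519, between Anapc7 and the end of Atp2a2, stood at 2.59 CPM in FOG2_OE and 2.56 CPM in WT. MSTRG.66520 and MSTRG.66521, listed there on the strand of Atp2a2, were not called, with log2 changes of -1.70 and -1.22 by the authors' deposited table (adjusted p = 0.14 and 0.0941). Beside Pln there were 8, with a median of 0.04 by the authors' deposited table and 1 lower call. This was MSTRG.7947, which lies inside Cep85l 1.13 kb upstream of the Pln start (chromosome 10, 53336389 to 53336540). It was listed at 0 in FOG2_OE and at 0.101 CPM in WT, at least 7.97-fold lower against a floor of 3 counts over the group (adjusted p = 0.000949 by the authors' deposited table, 0.00201 with the median ratio centred at 1, and 0.0835 with the F distribution). MSTRG.7941, over the end of Cep85l, stood at 14.0 and 13.6 CPM. Beside Sln no other feature was listed within 100 kb. The outermost member is MSTRG.7928, 83.3 kb from Pln. Just outside the limit, MSTRG.7925 at 112 kb and MSTRG.7924 at 116 kb had log2 changes of 1.43 and -0.22 by the authors' deposited table. MSTRG.7926 at 117 kb, in the long noncoding RNA gene Gm40649, had one of 1.81 by the authors' deposited table (implied SE 0.50, adjusted p = 0.0115).

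How many members were called depended on the scale between the groups and on the reference distribution. With the median ratio of all features centred at 1, MSTRG.66593 (adjusted p = 0.00146), MSTRG.66594 (0.00405) and MSTRG.84942 (0.0478) were called lower, 3 of 25 members, where 3.49% of all features were called lower and 1.62% higher. With the threshold on the adjusted p of the authors' deposited table at 0.01, MSTRG.66593 and MSTRG.66594 were called, beside 2.69% of all features. The authors' test refers the likelihood ratio to a chi-square distribution. When referred to an F distribution (10 residual degrees of freedom) instead, 0 members were called and the smallest adjusted p was 0.058, while 1.07% of all features were called lower. At an unadjusted p under 0.05 from the same F distribution, 15 members were lower and 1 higher, where 9.52% of all features were lower and 3.19% higher. A mean fitted count of at least 20 per library was reached by 13 members, 10 of Atp2a2, 3 of Sln and 0 of Pln. With p-values adjusted over the 8176 features that reached it, 8 members were called lower, beside 7.86% of those features called lower and 1.98% higher.

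Features of other calcium handling genes went in various directions. The lists, chosen with earlier results of these data known, held 62 such genes besides the members, of which 35 had 234 features under the same rule. Of these, 2 were called higher and 17 lower by the authors' deposited table, with a median log2 change of -0.19. Over all features 1.16% were called higher and 4.65% lower, with a median of -0.21. The calls became 5 higher and 11 lower with the median ratio centred at 1, beside 1.62% and 3.49% of all features. With the F distribution with 10 residual degrees of freedom they became 0 higher and 5 lower, beside 1.07% of all features called lower. The other calcium pumps and small pump regulators (Atp2a1, Atp2a3, Mrln and 1810037I17Rik) had 11 features, none called, with a median of -0.05 by the authors' deposited table (Smim6 had no feature, and Strit1 was not matched in the annotation).

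The list on phosphorylation of phospholamban had 109 features of 14 genes, 8 called lower and 1 higher, with a median of -0.05 by the authors' deposited table. Over all features 4.65% were called lower and 1.16% higher. With the median ratio centred at 1 the list had 6 lower and 4 higher calls, beside 3.49% and 1.62% of all features. With the F distribution it had 3 lower and 0 higher, beside 1.07% of all features called lower. The lower calls were 4 of the 9 features of Ppp1r3a, which encodes a muscle subunit that targets protein phosphatase 1, and 1 each of Akap7, Ppp2r3a, Camk2d and Pde3a. Akap7 encodes an anchor of protein kinase A. MSTRG.68352 (chromosome 6, 14691692 to 14704121), 51.2 kb from the Ppp1r3a start, fell from 14.8 to 3.54 CPM, with a log2 change of -2.06 by the authors' deposited table (implied SE 0.35, adjusted p = 2.18e-06). The higher call was MSTRG.32316 at Ppp1r1a, an inhibitor of protein phosphatase 1, with 18 fitted counts over FOG2_OE and 1 over WT, a ratio of 17.9 with a counting interval of 2.78 to 733 (adjusted p = 0.0333 by the authors' deposited table).

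Genes of the calcium store, which bind calcium in the reticulum or hold the release complex together, had 15 features with a median of -1.06 by the authors' deposited table. Of these 4 were called lower and 0 higher, 3 of Trdn and 1 of Casq1. Beside this list and those of release, entry and mitochondrial uptake, 4.65% of all features were called lower and 1.16% higher. MSTRG.7525 in Trdn (chromosome 10, 33203671 to 33208617) fell from 59.7 to 13.9 CPM, with a log2 change of -2.10 by the authors' deposited table (implied SE 0.32, adjusted p = 5.17e-08). Genes of calcium release had 58 features with a median of -0.61 by the authors' deposited table. Calls were 3 lower and 1 higher, all assigned to Ryr2, the release channel. Of these, MSTRG.21945 fell from 0.255 to 0.0501 CPM (adjusted p = 0.012 by the authors' deposited table). MSTRG.21911, the higher call, overlaps no protein-coding gene and lies 67.0 kb from the Ryr2 start. It had 21 fitted counts over FOG2_OE and 1 over WT, a ratio of 20.6 with a counting interval of 3.30 to 849 (adjusted p = 0.0139 by the authors' deposited table). Genes of calcium entry had 17 features with a median of 0.05 by the authors' deposited table. The 1 lower call was MSTRG.71934 in the channel gene Cacna1c, with 2 fitted counts over FOG2_OE and 21 over WT. Its ratio of WT to FOG2_OE was 10.8 with a counting interval of 2.62 to 94.4 (adjusted p = 0.0431 by the authors' deposited table). Genes of mitochondrial uptake had 10 features with a median of -0.44 by the authors' deposited table. The 1 lower call was MSTRG.27423 near Micu2, from 0.120 to 0.0210 CPM (adjusted p = 0.0459 by the authors' deposited table). With the median ratio centred at 1 the calls at Cacna1c and Micu2 were lost (adjusted p = 0.0732 and 0.0873). With the F distribution the release, entry and mitochondrial lists had 0 calls, and the call at Ppp1r1a was lost. The store list then had 2 lower calls, beside 1.07% of all features called lower. Genes of extrusion, including the sodium-calcium exchanger Slc8a1 with 11 features, had 14 features and none called, with a median of 0.01 by the authors' deposited table.

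**Figure D3:**
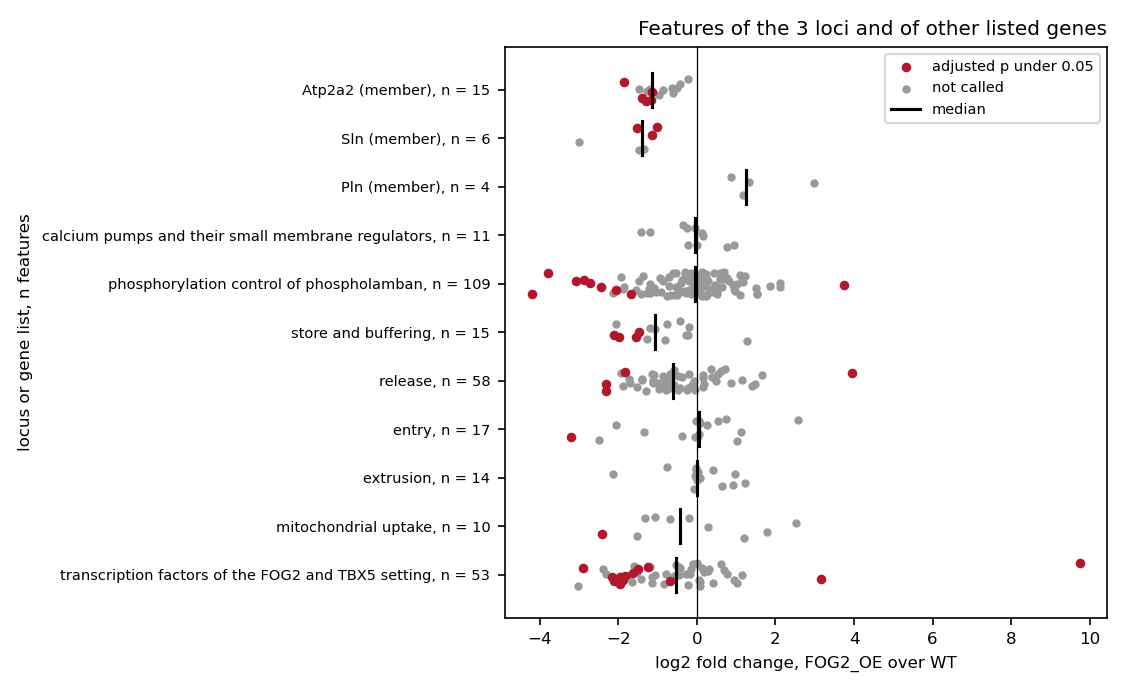
Log2 change (FOG2_OE over WT, from the authors' deposited table) of each feature of the 3 loci and of the other gene lists, red at an adjusted p under 0.05, with the median as a black bar. The medians of Atp2a2 (-1.13) and Sln (-1.40) lie below 0 and that of Pln (1.25) above it. Those of the other lists run from -1.06 (calcium store) to 0.05 (entry), with -0.61 for release and -0.05 for the other pump genes.

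The list of transcription factors of the setting had 53 features with a median log2 change of -0.54 by the authors' deposited table. Of these, 2 were called higher and 11 lower, beside 1.16% and 4.65% of all features. The lower calls were 7 of Zfpm2, the overexpressed gene itself, and 2 each of Gata4 and Gata6. One of the higher calls was MSTRG.29831 of Zfpm2, given in the opening, and the other was at Gata4. MSTRG.29822, upstream of Zfpm2, fell from 1.84 to 0.426 CPM (adjusted p = 3.07e-05 by the authors' deposited table). Of the 6 features of Tbx5 and the 14 of Nkx2-5 none was called. With the F distribution the list had 1 higher and 1 lower call, beside 1.07% of all features called lower.

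The summed level of atrial marker features was lower in FOG2_OE, and 7 of 16 outside Sln were called lower, beside 4.65% of all features. Of 9 atrial muscle genes 7 had a feature in their body (Nppa and Kcna5 had none), and the sum of these 19 features was 24.5 CPM in WT, against 9.85 CPM in FOG2_OE. Without those of Sln, the sum in FOG2_OE was 6.93 CPM, against 18.5 CPM in WT, over 16 features with 0 called higher. Tbx5, 1 of the listed genes, gave none of the lower calls. Its 6 linked features had a median log2 change of 0.1 by the authors' deposited table. The features of a gene may be pieces of the same transcripts and are not independent of each other. Features of genes common to all heart muscle (6 of 8 genes, Myh6 and Pln without one) summed, without those of Atp2a2, to 75.0 CPM in FOG2_OE against 96.2 CPM in WT, with 2 of 118 called lower and 2 higher. The part of these in the result was not tested. Of 6 ventricular genes, Myl2, Myl3, Myh7, Irx4 and Hey2 had no feature. The 1 feature of Mypn stood at 0.026 CPM in FOG2_OE and 0.0674 CPM in WT and was not called. Fibroblast genes (4 of 8, without Col1a2, Pdgfra, Postn and Tcf21) summed to 3.43 and 2.16 CPM, and endothelial genes (5 of 6, without Vwf) to 2.14 and 1.95 CPM. Smooth muscle, immune, epicardial, skeletal muscle, neural and adipose lists had 0 to 2 genes with a feature each and summed to at most 0.828 CPM in either group. The table lists noncoding features, so that these sums are not levels of the marker messenger RNAs. Effective library sizes lay between 71164892 and 84888504 reads.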

How the data were processed

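The values are those of the authors' deposited table, which holds for each feature the log2 fold change between the groups (FOG2_OE over WT). It also holds the abundance as log2 of the counts scaled to library size, the likelihood ratio as a score, and the p-value with its adjusted form, each computed by the authors. The submitters' processing notes name STAR, HTSeq (0.6.0), edgeR, deepTools and mm10, without roles; the aligner's and assembler's settings are not given in the sources used here. The sample columns were constant multiples of each other within a group (largest relative spread 1.8e-14), hence fitted values, so that no count test was run and p-values are the authors' own, adjusted over all 34518 features. Whether the libraries came from separate animals is not stated, so that p-values measure the spread between these libraries only.

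Effective library sizes were solved from 788 features above 300 fitted counts in both groups. The negative binomial dispersion was solved from each likelihood ratio of at least 0.1 and taken from features of like abundance otherwise, and gave the implied SE. A 95% interval is the log2 fold change plus or minus 1.96 SE. The step that solves the dispersion was tested on simulated data; the coverage of the intervals was not tested. Of 102 symbols also in RefSeq, 96 had a start 1 below the RefSeq start, so that positions are printed counting from 1. Scripts ran on pandas 2.3.3, scipy 1.17.1, numpy 2.4.6 and matplotlib 3.10.9 under Python 3.11.15. The alternatives were another scale between groups, F distributions as reference, a filter on low values, a stricter threshold and other membership rules.

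The members and gene lists were chosen with earlier results of these data known. Named were called members, the most abundant member and the largest change of each locus, members over exons or within 5 kb of a start, and the call with the smallest adjusted p in each direction of each list. Other genes with calls and features beside the loci were named after their values were seen.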

Additional observations from a re-analysis of the deposited data

How the results depend on the processing

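The 8 lower calls among the members became 3 with the median ratio centred at 1, 2 at an adjusted p under 0.01, and 4 when only the 11 features overlapping a gene body were taken. They became 0 with an F distribution with 10 or with 4 residual degrees of freedom. With 4, no feature of the whole table passed, and 9 members were lower and 0 higher at an unadjusted p under 0.05, where 5.58% of all features were lower and 1.53% higher. There were 8 lower calls with a distance of 50 kb (21 features), with the nearest gene body in place of the nearest start (22 features) and among features with a mean fitted count of at least 20. Counting only the most abundant of overlapping features, an alternative chosen after seeing the data, gave 7 of 24. No member was called higher under any of these, and none changed direction with the median ratio centred at 1. The summed ratio was 0.523 for Atp2a2 and 0.517 for Sln with the median ratio centred at 1, and 0.476 and 0.408 without the most abundant feature of each locus. The other listed genes, transcription factors included, had 28 lower and 4 higher calls among 287 features, beside 4.65% and 1.16% of all features. These became 19 lower and 7 higher with the median ratio centred at 1, beside 3.49% and 1.62% of all features. With the F distribution with 10 residual degrees of freedom (chosen after seeing the data) they were 6 lower and 1 higher, beside 1.07% of all features called lower. Among features with a mean fitted count of at least 20, where fewer features are tested, they were 17 lower and 1 higher. Of all features that reached this count, 7.86% were called lower and 1.98% higher. How many of the 287 reached it is not given here. The cause of the other shifts was not tested. No paired analysis was possible because the sample columns hold fitted values and not counts, and for the same reason no replicate could be left out. All 4 Pln features were scarce, with mean fitted counts of 3.42 to 16.4 per library, as were 5 features of Atp2a2 and 3 of Sln with under 20.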
